A study of Mus musculus with 6 samples.

Results

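Plasmacytoid dendritic cell markers were followed in CD11c+ spleen cells of wild-type mice and of mice hypomorphic for Atg16L1. The markers were 10 genes, and every probe set whose platform symbol was exactly one of them was taken. That gave 14 probe sets for 7 genes, of 20379 probe sets for 12393 genes in all. The genes Ccr9 (3 probe sets), Lag3 (1), Atp1b1 (5), Ly6d (1), Pdcd4 (1), Upb1 (1) and Pacsin1 (2) were measured, and Runx2, Mctp2 and Cobll1 were not analysed here. Affymetrix arrays were hybridized with RNA from 3 wild-type and 3 hypomorph samples. Both groups were on the C57BL/6J background, 8 weeks of age and untreated, and the cells were isolated from spleen by magnetic selection (MACS) for CD11c. They differed in the Atg16L1 genotype, WT against hypomorphic, an allele of reduced function in a gene of autophagosome formation. The labels do not describe how the allele was made. Nothing in the labels ties an array to an animal of its own, so the p-values reflect only how far these samples spread, and the number of arrays limits the precision.

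Plasmacytoid dendritic cells are the dendritic cells that sense viral nucleic acids through endosomal Toll-like receptors and secrete large amounts of type I interferon. They arise in bone marrow under the E protein TCF4, with SPIB, IRF8 and RUNX2 as further factors, and the inhibitor ID2 opposes that programme in favour of conventional dendritic cells. In the mouse spleen they carry less CD11c than conventional dendritic cells, so a selection on CD11c captures them together with conventional dendritic cells, some macrophages and other CD11c-bearing cells. None of the markers belongs to them alone. Ccr9 and Lag3 are also used by T cells, Lag3 by NK cells, and Ly6d by B cells.

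All values below are log2 signals, the unit of the deposited table, with the base inferred from their range (lowest 1.98 and highest 14.3 among the tested probe sets). Differences are hypomorph minus wild type on that scale. A probe set is said to have risen or fallen where limma, a moderated linear model fitted across all 20379 probe sets, gave a Benjamini-Hochberg adjusted p under 0.05. Of the 14 marker probe sets, 6 rose, from the genes Ccr9, Lag3 and Atp1b1, where 9.95% of all probe sets rose. None of the 14 fell with limma, where 7.73% of all probe sets fell. At an unadjusted p under 0.05, 1 of the 14 was lower, as were 3471 of all 20379. The 4 risen probe sets of Atp1b1 share 1 target gene, so by genes the count was 3 risen of 7, against 9.65% of all genes when each was read by its brightest probe set. The arrays of the groups did not overlap for 9 of the 14 probe sets, against 39.8% of all, and the hypomorph was the separate and higher group for 8 of the 14, against 19% of all. By genes the groups did not overlap for 4 of 7, against 41% of all genes. The hypomorph was separate and higher for 3 of 7, against 18.5% of all genes. The median difference over the 14 was 0.51, and over all probe sets it was -0.04. The markers were chosen with earlier results of these data known, so these comparisons with all probe sets are descriptive. The cells were measured in bulk, so more or fewer cells of a type and more or less RNA per cell cannot be told apart.

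The risen genes with an entry among the RefSeq promoters (build GRCm38.p6) were Ccr9 and Atp1b1. Their sequences are shown because both genes rose in the same arrays while the upstream DNA differs in composition. Each is the stretch of 250 bases that ends 1 base before the annotated start, 5′ to 3′ on the gene's strand. Capitals mark matches to any of 3 motifs searched on both strands: the E-box CANNTG, which E proteins such as TCF4 bind and which reads the same on both strands, the RUNX motif TGTGGT, and the PU box GAGGAA, which SPIB and PU.1 bind.
Ccr9, chr9:123766961-123767210, plus strand: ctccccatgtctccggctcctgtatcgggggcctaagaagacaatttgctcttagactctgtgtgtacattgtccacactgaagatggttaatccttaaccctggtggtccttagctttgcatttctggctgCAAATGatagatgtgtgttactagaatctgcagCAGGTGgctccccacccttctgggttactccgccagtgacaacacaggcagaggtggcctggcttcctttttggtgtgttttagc
Atp1b1, chr1:164458356-164458605, minus strand: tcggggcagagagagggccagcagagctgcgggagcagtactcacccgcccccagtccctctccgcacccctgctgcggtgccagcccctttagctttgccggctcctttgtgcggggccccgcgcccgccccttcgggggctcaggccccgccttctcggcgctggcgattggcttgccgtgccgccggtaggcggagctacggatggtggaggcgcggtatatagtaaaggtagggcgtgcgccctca
The Ccr9 stretch held 2 E-boxes, CAAATG and CAGGTG, whose first bases lie 118 and 85 bases upstream of the start, with 50.4% G or C and 3 CpG. The Atp1b1 stretch held no match, with 70.4% G or C and 24 CpG. Entries were found for 5 of the 7 measured genes. Pdcd4 has 2 annotated starts, of which the one at chr19:53891981-53892230 held 2 E-boxes and 1 RUNX motif and the other no match. Upb1 held 1 PU box and Pacsin1 1 RUNX motif. Among all 32851 promoter stretches of that length, 66.2% held an E-box, 14% a RUNX motif and 23.3% a PU box. A match describes letters and not a binding site, and the motifs overlapped in none of the stretches of the measured genes.

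**Figure D1:**
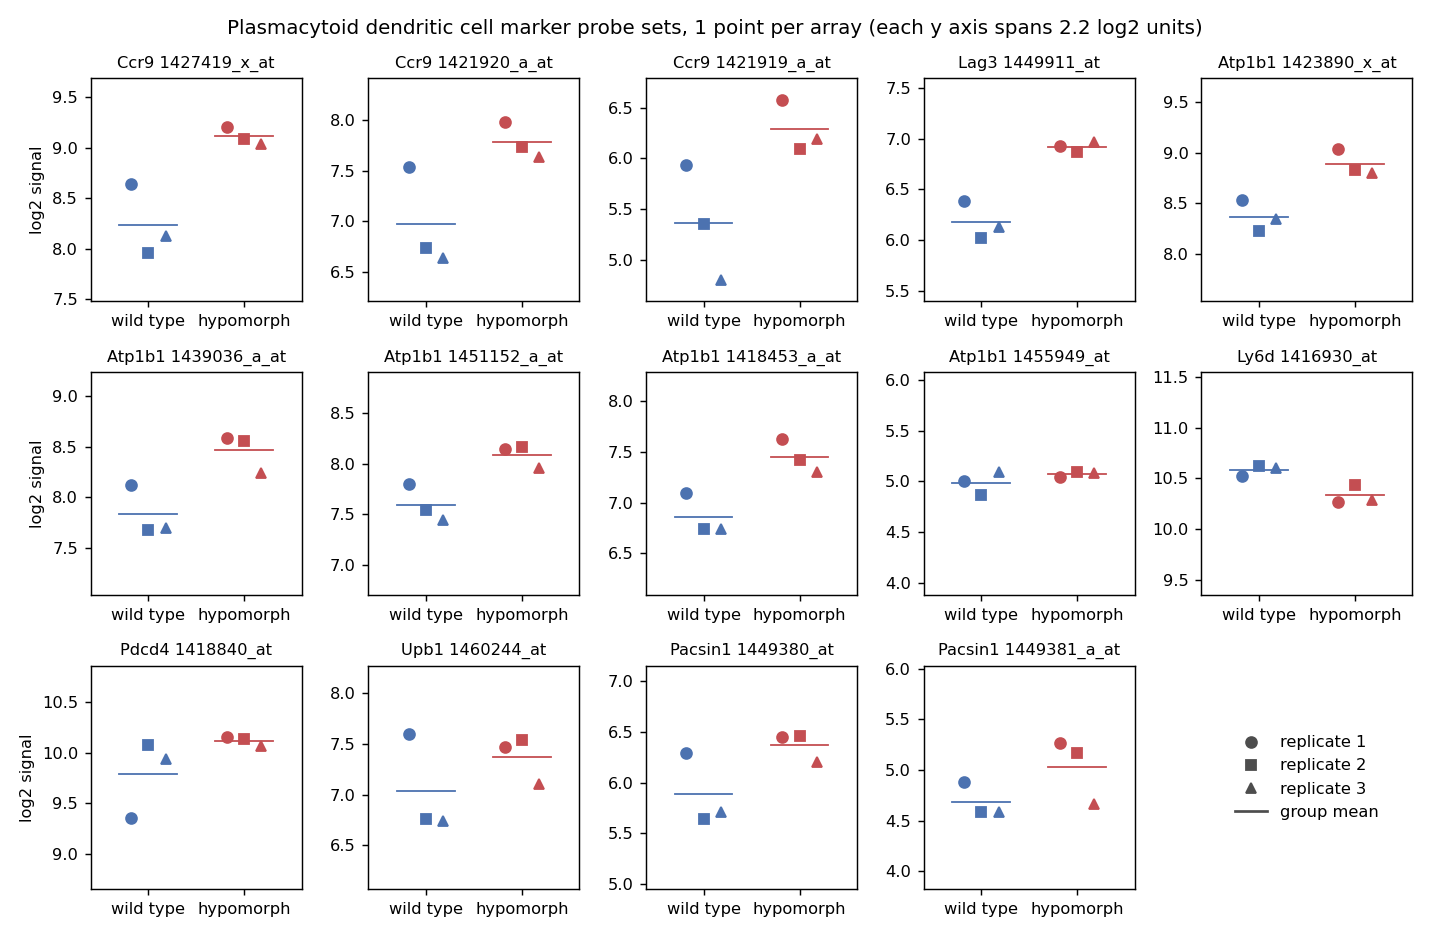
Each panel is 1 probe set of a marker gene, with the log2 signal on the y axis and 1 point per array (circle, square and triangle for replicates 1, 2 and 3, line for the group mean). The hypomorph points lie above all wild-type points in the panels of Ccr9, Lag3 and 4 of 5 Atp1b1 probe sets, and wild-type replicate 1 is the highest wild-type point in all of those panels.

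Among the surface receptors, Ccr9 encodes the receptor for the chemokine CCL25, which draws cells to the gut and thymus. Its brightest probe set, 1427419_x_at, read 8.64, 7.96 and 8.12 in wild-type replicates 1 to 3 and 9.20, 9.09 and 9.03 in the hypomorph. Every hypomorph array was above every wild-type array, and wild-type replicate 1 lay closest to them. The difference was 0.87 (SE 0.17, 95% interval 0.47 to 1.27), a 1.83-fold rise from 8.24 ± 0.35 to 9.11 ± 0.09 (SD, n = 3; limma adjusted p = 0.0164). The suffix x marks probes that may also match other transcripts, which makes the gene's other probe sets relevant. Probe set 1421920_a_at read 7.54, 6.74 and 6.64 in wild type and 7.98, 7.73 and 7.63 in the hypomorph, a difference of 0.81 (SE 0.23, adjusted p = 0.0557). Probe set 1421919_a_at read 5.94, 5.35 and 4.80 against 6.57, 6.09 and 6.19, a difference of 0.92 (SE 0.28, adjusted p = 0.0602). In both the groups were separate, and neither passed the threshold with all 6 arrays. Without wild-type replicate 1 all 3 passed (adjusted p = 0.002, 0.00381 and 0.0158). The call of 1427419_x_at was lost without hypomorph replicate 1, 2 or 3 (adjusted p = 0.0648, 0.0613 and 0.0564).

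Lag3 encodes an inhibitory receptor that binds MHC class II and that marks activated lymphocytes as well as plasmacytoid dendritic cells. Its only probe set read 6.39, 6.02 and 6.13 in wild type and 6.93, 6.86 and 6.97 in the hypomorph. The hypomorph arrays lay close together and above every wild-type array. The rise was 1.67-fold, from 6.18 ± 0.19 to 6.92 ± 0.05 (SD, n = 3), a difference of 0.74 (SE 0.11, 95% interval 0.49 to 1.0, limma adjusted p = 0.00604). It was the 1 marker probe set called whichever single array was left out, with adjusted p from 0.00253 to 0.0359. The T cell list, in which Lag3 could also be expressed, had 1 of 11 genes risen, against 9.65% of all genes, and a median of -0.24. The risen gene was Cd8b1, by 0.96 (limma adjusted p = 0.0402). Cd3d and Cd3e, chains of the T cell receptor complex, differed by -0.48 (adjusted p = 0.222) and -0.24 (adjusted p = 0.215). In the NK cell list limma called none of 6 genes, and Ncr1 and Nkg7 differed by 0.18 and 0.21 (adjusted p = 0.588 and 0.651). The 1 with an unadjusted p under 0.05 was Klrd1, which was lower (-0.28, adjusted p = 0.106). Cd8b1 and Klrd1 are named after their values were seen. Whether T or NK cells contribute to the Lag3 signal was not tested.

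Ly6d encodes a small GPI-anchored surface protein of B cell and plasmacytoid precursors and of B cells. It was the 1 marker that was lower in the hypomorph. The arrays read 10.52, 10.62 and 10.60 in wild type and 10.27, 10.44 and 10.29 in the hypomorph. The groups were separate although the difference was small, -0.25 (SE 0.083, 95% interval -0.45 to -0.06), and it did not pass (limma adjusted p = 0.0784). It passed after quantile normalization (-0.33, adjusted p = 0.0291) and with trend and robust fitting (adjusted p = 0.0261). B cell genes were lower in the same arrays: 6 of 10 fell, against 8.32% of all genes. Their median was -0.62, against -0.05 over all genes. The list's mean log2 signal lay between 8.24 and 8.60 in wild type and between 7.64 and 8.13 in the hypomorph. Cd79a and Cd79b, the signalling chains of the B cell receptor, fell by 0.79 and 0.63 (adjusted p = 0.0101 and 0.0298). The part of B cells in the Ly6d value was not tested.

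Among the genes for transport and trafficking, Atp1b1 encodes the beta 1 subunit of the sodium and potassium pump. Its brightest probe set, 1423890_x_at, read 8.53, 8.23 and 8.34 in wild type and 9.03, 8.83 and 8.80 in the hypomorph. Again no wild-type array reached the lowest hypomorph array. It rose 1.43-fold, from 8.37 ± 0.15 to 8.89 ± 0.13 (SD, n = 3), a difference of 0.52 (SE 0.11, 95% interval 0.26 to 0.78, limma adjusted p = 0.021). Probe sets 1439036_a_at, 1451152_a_at and 1418453_a_at rose by 0.63, 0.50 and 0.59 (adjusted p = 0.0316, 0.0286 and 0.0241), and none of them had overlapping groups. The fifth, 1455949_at, was dim, at 5.0, 4.87 and 5.09 against 5.04, 5.09 and 5.08, with overlapping groups and a difference of 0.09 (SE 0.085, adjusted p = 0.521). The probe sets of 1 gene therefore did not all move, and the size of the rise was similar in the 4 that did. All 4 calls were lost without wild-type replicate 3 or without any 1 hypomorph array, with adjusted p up to 0.114, and those of 1439036_a_at and 1451152_a_at also without wild-type replicate 2 (adjusted p = 0.064 and 0.057).

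Pacsin1 encodes a protein that bends membranes during endocytosis and takes part in the interferon response of plasmacytoid cells to TLR9. Probe set 1449380_at read 6.30, 5.64 and 5.71 in wild type and 6.45, 6.46 and 6.21 in the hypomorph. Wild-type replicate 1 lay above the lowest hypomorph array, so the groups overlapped. The difference of 0.49 (SE 0.18, 95% interval 0.06 to 0.91) did not pass (limma adjusted p = 0.106), and without wild-type replicate 1 it was 0.70 and passed (adjusted p = 0.0104). The dimmer 1449381_a_at read 4.88, 4.59 and 4.58 against 5.27, 5.17 and 4.66, with a difference of 0.35 (adjusted p = 0.207).

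The remaining genes encode a metabolic enzyme and a regulator of translation. Upb1 encodes beta-ureidopropionase, which carries out the last step of pyrimidine breakdown. It read 7.60, 6.76 and 6.74 in wild type and 7.47, 7.54 and 7.11 in the hypomorph. Wild-type replicate 1 was above all hypomorph arrays and the other wild-type arrays were below all of them. The difference was 0.34 (SE 0.24, 95% interval -0.23 to 0.91, limma adjusted p = 0.382), and 0.62 without wild-type replicate 1 (adjusted p = 0.0344). It was 0.20 without wild-type replicate 2 and 0.19 without wild-type replicate 3 (adjusted p = 0.615 and 0.667). Pdcd4 encodes an inhibitor of the helicase eIF4A and is expressed in many lymphoid cells. It read 9.36, 10.08 and 9.94 in wild type and 10.15, 10.13 and 10.06 in the hypomorph, so that here wild-type replicate 1 was the lowest array. The difference of 0.33 (SE 0.18) did not pass (adjusted p = 0.254), and without wild-type replicate 1 it was 0.11 (adjusted p = 0.42).

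**Figure D2:**
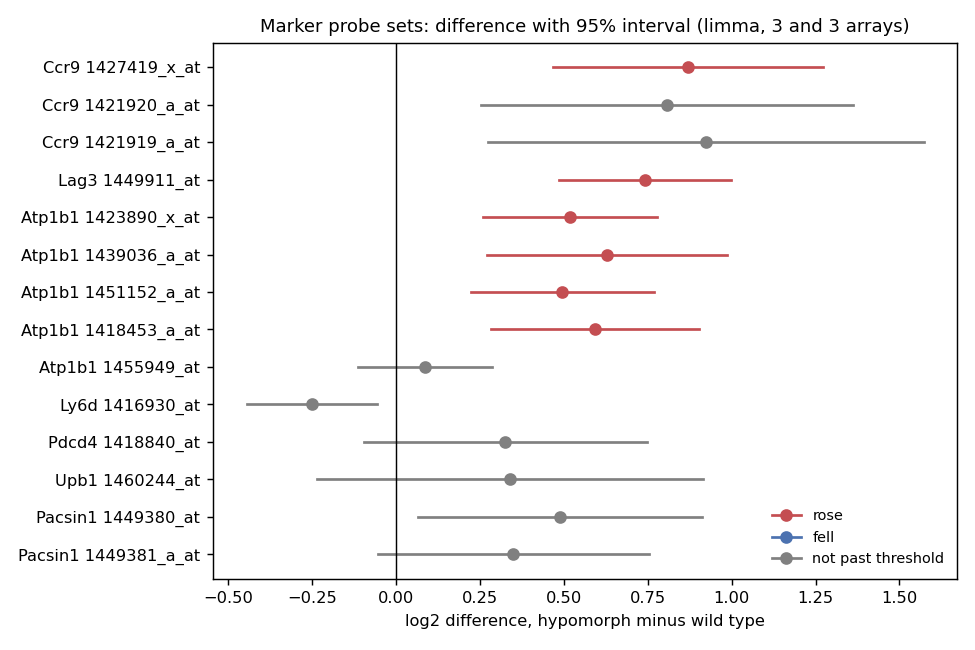
Points give the log2 difference, hypomorph minus wild type, of each of the 14 marker probe sets, and lines its 95% interval from limma. The 6 probe sets that rose (red) lie between 0.50 and 0.87, and Ly6d is the only one below 0.

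The markers also varied within the wild-type group. In 12 of 14 probe sets wild-type replicate 1 was above the mean of wild-type replicates 2 and 3 (85.7%, against 53.5% of all probe sets), with a median gap of 0.33 (0.02 over all). Several of these probe sets share a gene. By genes, each read by its brightest probe set, it was 5 of 7 (71.4%, against 54.3% of all genes), with a median gap of 0.31 (0.03 over all genes). The mean over the 14 probe sets was 7.41 on that array and 7.06 and 7.04 on the others, against 7.77, 7.68 and 7.54 in the hypomorph. The title of that array starts its numbering differently from the rest, and another array version is named for wild-type replicate 3. Without wild-type replicate 1 the count of risen marker probe sets went from 6 to 10, while the share of all probe sets that rose went from 9.95% to 8.9%. The count was 4 without wild-type replicate 2 (9.65% of all) and 2 without wild-type replicate 3 (8.24% of all). Without hypomorph replicate 1, 2 or 3 it was 1, with Lag3 the one called, and the shares of all were 5.06%, 5.04% and 4.57%.

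Some other technical and cell type measures differed between the genotypes, while others showed mixed differences or none that passed. Atg16l1 was lower in every hypomorph array, at 6.03 ± 0.16 against 7.07 ± 0.04 (SD, n = 3; limma adjusted p = 0.00139). The poly-A spike-ins, control transcripts added to the RNA, averaged 8.95 to 9.96 on the wild-type arrays and 7.58 to 7.90 on the hypomorph arrays (24 probe sets). With their mean as a covariate in limma none of all 20379 probe sets passed, so no marker did either. At an unadjusted p under 0.05 were 9.48% of all probe sets and 10 of the 14 markers. The fitted differences of the called markers were larger in that fit, at 1.71 for Ccr9 1427419_x_at, 1.11 for Lag3 and 0.92 for Atp1b1 1423890_x_at (limma adjusted p = 0.405, 0.421 and 0.472). Because the spike-in means of the groups did not overlap, that fit cannot separate genotype from spike-in level. Neither the lost calls nor the larger differences are therefore read as results about the markers. All 15 macrophage genes rose, with a median of 1.94 and a list mean of 8.76 to 9.46 in wild type and 10.99 to 11.09 in the hypomorph, Adgre1 by 2.11 and C1qa by 1.89. Among the wild-type arrays, replicate 1 had the lowest macrophage mean and the highest marker mean. Conventional dendritic cell genes had 2 of 14 risen and 2 fallen, with a median of 0.05, where 9.65% of all genes rose and 8.32% fell. Ccr7 rose by 1.40 and Xcr1 by 0.46 (limma adjusted p = 0.00422 and 0.0384), and Zbtb46 fell by 0.63 (adjusted p = 0.0101). Itgax, which encodes CD11c, also fell, by 0.37 (adjusted p = 0.0351), and the growth factor receptor gene Flt3 differed by -0.33 (adjusted p = 0.084). In the plasma cell list 1 of 5 genes fell, with a median of -0.37. The fallen gene was Jchain, by 1.73 (limma adjusted p = 0.00813), and Sdc1 did not pass (-0.28). Prdm1 was the 1 gene of that list that was higher, by 0.54 without passing (adjusted p = 0.0556), and its groups did not overlap. The neutrophil list had 1 of 6 genes risen, with a median of -0.05. S100a8 and S100a9 were at -0.28 and -0.59 without passing, while the granule gene Ltf rose by 1.09 (adjusted p = 0.04) and Camp was at 0.86 (adjusted p = 0.0702). In the erythroid list 0 of 4 genes passed by limma, and 0 had an unadjusted p under 0.05, with a median of 0.51. Its members were Hba-a1 at -0.13, Alas2 at 0.04, Epb42 at 0.98 and Slc4a1 at 1.33. Ccr7, Xcr1, Zbtb46, Prdm1, Ltf, Camp, Epb42 and Slc4a1 are named after their values were seen. The part of these measures in the marker differences was not tested.

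**Figure D3:**
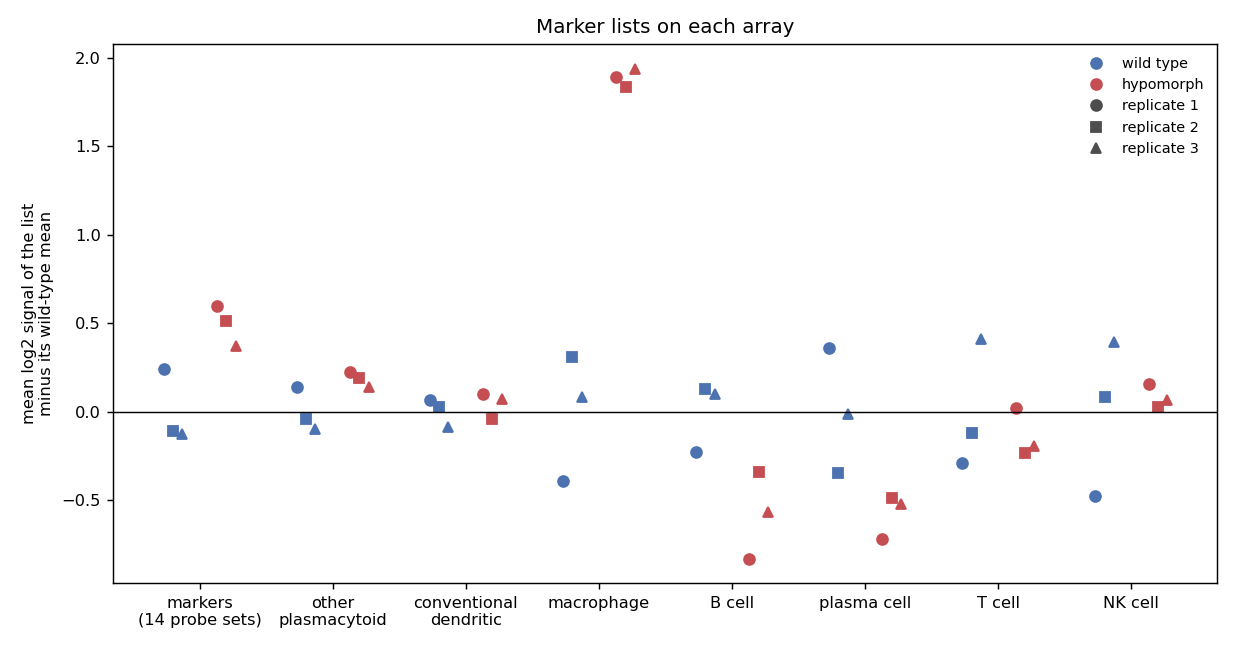
The y axis is the mean log2 signal of each marker list minus its wild-type mean, with 1 point per array (blue wild type, red hypomorph; circle, square and triangle for replicates 1 to 3). Macrophage genes are 1.84 to 1.94 higher on the hypomorph arrays, the 14 marker probe sets 0.37 to 0.60 higher, and wild-type replicate 1 is the highest wild-type array for the markers and the lowest for macrophage genes.

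A wider set of 30 genes of plasmacytoid dendritic cell identity, function and regulation, of which 25 were measured, had members that rose and 1 that fell. Each gene was read by its brightest probe set: 3 rose (Tlr7, Id2 and Tex2), 1 fell (Spib), and the median was 0.16, with -0.05 over all genes. Id2 is in the set as an opponent of the programme, and without it, a choice made after seeing the data, 2 of 24 rose and 1 fell, with a median of 0.14. Among all genes 9.65% rose and 8.32% fell. The groups did not overlap for 11 of the 25, against 41% of all genes. Siglech, the lectin gene most used to define these cells in mice, was not analysed here.

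Among the nucleic acid sensors, Tlr7, which recognises single-stranded RNA, read 7.10, 7.32 and 7.42 in wild type and 8.58, 8.62 and 8.76 in the hypomorph. It rose 2.58-fold (1.37, SE 0.11, limma adjusted p = 0.00107), and its 2 other probe sets rose by 1.47 and 1.40. Macrophages also express Tlr7, and their genes were higher in the same arrays. The part of macrophages in the Tlr7 value was not tested. Tlr9, the sensor of CpG DNA, was dim and read 4.46, 3.71 and 4.21 against 4.11, 4.19 and 3.94, with a difference of -0.05 (adjusted p = 0.87) whose sign turned after quantile normalization. Irf7, the factor behind high interferon output, read 8.30, 7.87 and 7.68 against 7.70, 8.01 and 8.27. Its groups overlapped throughout, and the difference was 0.04 (95% interval -0.42 to 0.50, adjusted p = 0.915), with its sign turned after quantile normalization. Bst2, the tetherin gene whose product is stained as PDCA-1, read 8.89, 8.54 and 7.95 against 8.98, 8.88 and 8.73. Its difference of 0.41 (SE 0.22) did not pass (adjusted p = 0.253). It was 0.15 without wild-type replicate 3 and 0.62 without wild-type replicate 1, and passed in neither case (adjusted p = 0.505 and 0.0684).

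Among the lineage factors Spib fell, the opposing gene Id2 rose, and Tcf4 and Irf8 did not pass. Spib, an ETS factor that B cells also express, read 10.29, 10.10 and 10.24 in wild type and 9.71, 9.77 and 9.56 in the hypomorph. It fell 1.44-fold, from 10.21 ± 0.10 to 9.68 ± 0.11 (SD, n = 3), a difference of -0.53 (SE 0.094, limma adjusted p = 0.0119). That call was lost without hypomorph replicate 3 (adjusted p = 0.0559), and B cell genes were lower in the same arrays (median -0.62). The part of B cells in the Spib value was not tested. Tcf4 differed by -0.09 (95% interval -0.27 to 0.09, adjusted p = 0.452) in its brightest probe set, and its 5 other probe sets, between -0.23 and 0.25, did not pass either. Irf8 differed by 0.11 (95% interval -0.20 to 0.41, adjusted p = 0.601) in its brightest probe set, with its sign turned after quantile normalization. Another Irf8 probe set, 1448452_at, differed by -0.007 (limma adjusted p = 0.982). Id2, which conventional dendritic cells and other innate cells express, rose 1.56-fold, from 10.83 ± 0.13 to 11.47 ± 0.06 (adjusted p = 0.00552). A second probe set of Id2 rose by 0.78 and another differed by 0.17 without passing. Tex2, which encodes a membrane protein with a lipid-binding domain, rose by 0.57 (adjusted p = 0.0219), a call lost without any 1 hypomorph array.

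**Figure D4:**
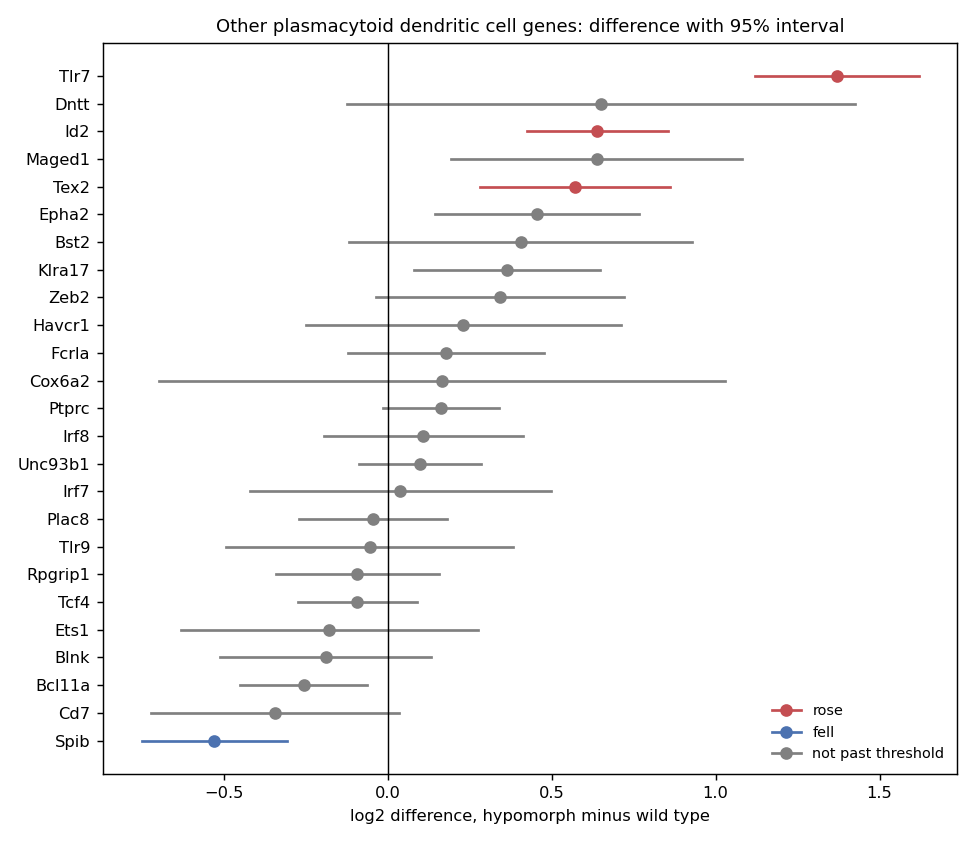
Points give the log2 difference, hypomorph minus wild type, of 25 other genes of plasmacytoid dendritic cells by their brightest probe set, with 95% intervals from limma, in order of size. Tlr7, Id2 and Tex2 rose (red), Spib fell (blue), and the intervals of 21 genes in grey belong to differences that did not pass.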

How the data were processed

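The deposited values are 1 log2 signal per probe set and array, made by the authors with Affymetrix Power Tools per the submitters' processing notes. The version, background correction, summarization and log base are not stated in any source used here, and close array medians (5.72 to 5.79) show values already normalized between arrays. Of 22690 probe sets, 1 had no value, 64 were controls, 691 named several genes and 1555 none, and the 20379 naming 1 gene were tested. Platform symbols were used as given. limma 3.58.1 in R 4.3.3 (lmFit, eBayes without trend or robust fitting, two-sided, no covariate) compared the genotypes on all 6 arrays without a filter. The fit was tested on simulated data. Python 3.11.15, pandas 2.3.3 and matplotlib 3.10.9 made tables and plots. Marker lists were read by the probe set of highest mean per gene. Named were all markers, the other plasmacytoid genes past the threshold with 8 fixed ones, the first 2 measured genes of each other list, and Atg16l1. Genes named after their values were seen are marked where they appear. Members and lists were chosen with earlier results of these data known. Alternatives were 1 probe set per gene, a filter at the lower quartile of signal, quantile normalization, median centring, trend with robust fitting, the replicate block, the spike-in covariate and leaving out each array.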

Additional observations from a re-analysis of the deposited data

How the results depend on the processing

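The 6 risen marker probe sets were 3 when each gene had 1 probe set, 0 with the spike-in covariate in limma (10 at an unadjusted p under 0.05), a fit in which none of all 20379 probe sets passed (1932 at an unadjusted p under 0.05), and from 1 to 10 when 1 array was left out. The covariate fit cannot separate genotype from the spike-in level, which did not overlap between the groups. The share of all probe sets that rose with 1 array left out was 4.57% to 9.65%, against 9.95% with all. The count of fallen markers, 0 with limma (1 at an unadjusted p under 0.05), was 1 after quantile normalization and with trend and robust fitting, and that 1 was Ly6d. Among other plasmacytoid genes the 3 risen were 5 after quantile normalization or median centring, 6 with trend and robust fitting, 0 with the covariate, and 2 to 5 with 1 array left out. Of all probe sets 9.65% rose after quantile normalization, 9.76% after median centring and 11.5% with trend and robust fitting, against 9.95% in the main fit. The 1 fallen was 2 after quantile normalization and with trend and robust fitting, 0 with the covariate (9 of 25 at an unadjusted p under 0.05 in either direction), and 0 to 2 with 1 array left out. Over all 20379 probe sets 1744 fell after quantile normalization and 1858 with trend and robust fitting, against 1576 in the main fit. The remaining settings kept the counts of markers and other plasmacytoid genes within 1.5 times.

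Signs turned for differences that did not pass. With the covariate, Atp1b1 probe set 1455949_at was at -0.107, Pdcd4 at -0.478, Tcf4 at 0.125 and Tlr9 at 0.260. After quantile normalization Irf7 was at -0.011, Irf8 at -0.001 and Tlr9 at 0.002. With 1 array left out Irf7 ranged from -0.100 to 0.212, Irf8 from -0.028 to 0.212 and Tlr9 from -0.263 to 0.112. The cause was not tested.

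With the replicate number as a block, 8 marker probe sets rose, the 2 added being those of Ccr9, and 3 other plasmacytoid genes rose and 1 fell. Over all probe sets 6.64% rose with the block, against 9.95% without. In either direction 2214 passed with the block against 3604 without. Deviations of same-numbered arrays correlated at 0.159, 0.0188 and 0.0997, and 3 of 6 arrays correlated best with their own number. With 3 arrays a group these values cannot decide whether same-numbered arrays share more than a number, and the labels do not say.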

Other observations

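Among the other plasmacytoid genes, Cox6a2, which encodes a subunit of cytochrome c oxidase, and Dntt, which encodes the terminal transferase of lymphoid precursors, had the widest wild-type spread. They are named after their values were seen. Cox6a2 read 8.30, 6.77 and 7.13 in wild-type replicates 1 to 3 and 7.85, 7.47 and 7.37 in the hypomorph, so that wild-type replicate 1 was the highest of all 6 arrays. Dntt read 6.77, 5.53 and 5.55 against 6.86, 6.54 and 6.40, with wild-type replicate 1 inside the hypomorph range. Cox6a2 did not pass in limma (0.17, adjusted p = 0.791), and Dntt did not either (0.65, adjusted p = 0.219), but without wild-type replicate 1 Dntt was at 1.06 (adjusted p = 0.00754). On the same array the means of the T cell and NK cell lists were the lowest of the 3 wild-type arrays, at 5.94 and 6.96, and the plasma cell mean was the highest, at 6.98.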
